A study of Homo sapiens with 18 samples.

Results

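The genes of the respiratory chain and of ATP synthase were examined in RNA of OVCAR5, an established human ovarian cancer cell line. They were chosen by name alone: protein-coding symbols of the NDUFA, NDUFB, NDUFC, NDUFS and NDUFV series, SDHA to SDHD, the UQCR series, COX4 to COX8, the ATP5F1, ATP5M and ATP5P series, and the MT-ND, MT-CO, MT-CYB and MT-ATP genes, without assembly factors. Of 102 matching symbols, 96 had a mean of at least 1 TPM (a length-scaled estimate of the share of a gene among all transcripts, with the same total in each sample), and these are the 96 genes described here among 13789 genes tested. The 6 that fell under the minimum were COX4I2, COX6A2, COX7A1, COX7B2, COX8C and ATP5MGL. Of the 96 genes, 13 are encoded by mitochondrial DNA (7 of complex I, 1 of complex III, 3 of complex IV and 2 of ATP synthase) and 83 by the nucleus (38 of complex I, 4 of complex II, 9 of complex III, 14 of complex IV and 18 of ATP synthase). NDUFA4 and its paralog NDUFA4L2 carry complex I names but were counted with complex IV, where the NDUFA4 protein is known to sit.

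The cells were labelled as wild type and as high grade serous ovarian adenocarcinoma, and 18 samples were sequenced, 3 replicates in each of 6 conditions. All cells were held for 24 h in medium with albumin free of fatty acids, to which DMSO alone, 1 µM CAY10566, 50 µM stearate with DMSO, 50 µM stearate with 1 µM CAY10566, 50 µM oleate with DMSO, or 50 µM oleate with 1 µM CAY10566 was added. The desaturase SCD1 turns the saturated acid stearate into the monounsaturated acid oleate, CAY10566 is an inhibitor of SCD1, and DMSO was the vehicle. The comparisons set 6 stearate samples and 6 oleate samples against 6 samples without fatty acid (control: DMSO and CAY10566) and against each other, so that the comparisons with control share the control samples. Every sample is 1 cell line in 1 laboratory, and the labels do not say whether replicates were separate cultures, so p-values measure the spread between these samples.

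The respiratory chain passes electrons from NADH (complex I) or succinate (complex II) through complex III to oxygen at complex IV, and complexes I, III and IV pump protons whose return drives ATP synthase, also called complex V. The complexes other than complex II are built from subunits of both genomes. The mitochondrial genes are read from long transcripts that are cut into separate messengers, whereas each nuclear gene has its own promoter.

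TPM keeps no record of the number of reads, so the depth is unknown and precision comes only from the spread between replicates. Of 4 sets of cell markers, all 6 epithelial genes were present (mean from 49.8 TPM for CDH1 to 895 TPM for KRT8). PAX8 (mean 11.8 TPM) and FOLR1 (3.49 TPM) of the serous carcinoma set were also present, whereas WT1 (0.126 TPM) and MUC16 (0.632 TPM) fell under 1 TPM. Of the fibroblast genes COL1A1 had 5.04 TPM and the other 3 were under 1 TPM, and all 4 leukocyte genes were under 1 TPM. One control library, CAY10566 replicate 3, stood apart in several nuclear members and is named where it moves a count.

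Neighbouring mitochondrial genes share bases, and reads there cannot be assigned to one gene with certainty. The sequences below, read from chromosome M of GRCh38 on the plus strand, show both overlaps, with the shared bases in capitals. The end of MT-ATP8 and the start of MT-ATP6 share 46 bases (chrM:8527-8572), which is 22.2% of the length of MT-ATP8 and 6.75% of that of MT-ATP6, while MT-ND4L and MT-ND4 share 7 bases (chrM:10760-10766).
MT-ATP8 and MT-ATP6, chrM:8518-8581: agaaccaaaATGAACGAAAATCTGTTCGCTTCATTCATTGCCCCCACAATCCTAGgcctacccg
MT-ND4L and MT-ND4, chrM:10748-10778: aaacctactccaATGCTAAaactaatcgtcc

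For the nuclear genes, RefSeq promoter windows (GRCh38.p14, 250 bases before the gene start to 50 after it) were found by symbol for 67 of 83. The windows of 4 genes on which the comparisons turned are shown, 5′ to 3′ on the strand of the gene: NDUFS1, which was higher with stearate, SDHA, which was lower with stearate than with oleate, and NDUFC1 and NDUFS8, which were lower with oleate. Capitals mark exact matches on either strand to GCGCANGCG (the core of the NRF1 motif), CCGGAAG (an ETS motif), AAGATGGCG (the YY1 motif) or CCAAT.
NDUFS1, chr2:206159395-206159694, minus strand: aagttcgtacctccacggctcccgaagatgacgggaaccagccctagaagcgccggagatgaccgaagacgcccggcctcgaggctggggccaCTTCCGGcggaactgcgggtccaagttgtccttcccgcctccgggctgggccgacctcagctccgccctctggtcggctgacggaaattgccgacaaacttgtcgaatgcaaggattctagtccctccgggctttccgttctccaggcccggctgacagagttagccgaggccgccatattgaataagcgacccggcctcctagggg
SDHA, chr5:218070-218369, plus strand: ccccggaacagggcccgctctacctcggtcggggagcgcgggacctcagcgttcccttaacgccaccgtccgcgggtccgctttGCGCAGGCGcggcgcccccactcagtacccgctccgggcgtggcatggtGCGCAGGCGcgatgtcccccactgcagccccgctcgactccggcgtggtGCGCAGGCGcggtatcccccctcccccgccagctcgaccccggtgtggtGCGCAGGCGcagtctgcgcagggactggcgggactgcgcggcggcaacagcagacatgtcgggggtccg
NDUFC1, chr4:139302502-139302801, minus strand: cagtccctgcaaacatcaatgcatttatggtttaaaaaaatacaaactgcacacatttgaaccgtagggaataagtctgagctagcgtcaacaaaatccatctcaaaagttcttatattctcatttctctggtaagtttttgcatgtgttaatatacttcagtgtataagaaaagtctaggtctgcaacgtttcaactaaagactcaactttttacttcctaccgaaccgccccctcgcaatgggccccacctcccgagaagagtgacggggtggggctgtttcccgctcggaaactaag
NDUFS8, chr11:68030431-68030730, plus strand: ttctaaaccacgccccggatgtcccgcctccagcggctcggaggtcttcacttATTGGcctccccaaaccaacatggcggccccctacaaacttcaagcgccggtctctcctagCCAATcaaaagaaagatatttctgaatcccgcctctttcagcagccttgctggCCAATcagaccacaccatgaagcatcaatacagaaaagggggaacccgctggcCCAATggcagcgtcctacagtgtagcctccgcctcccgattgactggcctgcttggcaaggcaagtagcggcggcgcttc

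The SDHA window held 4 matches to the NRF1 letters, the NDUFS1 window 1 match to the ETS letters and the NDUFS8 window 4 matches to CCAAT. The NDUFC1 window held 0 matches to these letters. The 67 genes had 80 windows in all, and the first listed window of each of the 4 genes is shown. Among the 67 nuclear genes with a window, GCGCANGCG was present in 34.3%, CCGGAAG in 31.3% and AAGATGGCG in 13.4%, against 9.02%, 12.2% and 2.14% of all 27305 genes with a window. A gene was counted if any of its windows held the string. The 27305 genes were not limited to protein-coding or expressed genes, as the members were, so the shares compare unlike sets. CCAAT was present in 34.3% against 39.7%, GGGGCGGGG (the SP1 motif) in 16.4% against 18.5% and TCAAGGTCA (the ERR motif) in 1.49% against 0.432%. No string among these 6 contains another. These are counts of letters in a window and not of bound sites.

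The 13 mitochondrial genes together took 5.26% ± 0.726 (SD, n = 18) of all TPM and the 83 nuclear genes 1.77% ± 0.0502. On the TPM scale, which allows for transcript length, mean levels of the mitochondrial genes ran from 1138 for MT-ND6, the single member on the minus strand of chromosome M, to 8407 for MT-ND4L. The median nuclear gene had 163 TPM. The nuclear range went from 1.84 TPM for NDUFA4L2, a paralog known as a hypoxia target, to 877 TPM for NDUFV2, a subunit of the NADH-oxidising arm of complex I. Median levels over nuclear genes were 127 TPM in complex I, 123 TPM in complex II, 148 TPM in complex III, 304 TPM in complex IV and 187 TPM in complex V. Levels of MT-ND4L and MT-ATP8 are uncertain because of their short length and the overlaps, and the library kit selects RNA with poly(A) tails, which MT-ND6 RNA is known to lack for the most part. Whether the quantification used the strand is not given in the sources used here, and without it reads of the transcript opposite MT-ND6 would be counted to that gene.

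The mitochondrial share varied widely between replicates in some conditions. The SD was 27.0% of the mean in oleate+DMSO, 16.1% in oleate+CAY10566 and 15.0% in stearate+DMSO. It was 4.14% in DMSO, 6.06% in CAY10566 and 5.61% in stearate+CAY10566. The share was 5.42%, 5.67% and 5.22% of TPM in the 3 DMSO replicates and 5.58%, 5.95% and 5.27% with CAY10566. In stearate+DMSO it was 4.23%, 4.50% and 5.59%, and in stearate+CAY10566 it was 6.12%, 5.47% and 5.80%. In oleate+DMSO it was 6.15%, 4.73% and 3.56%, and in oleate+CAY10566 it was 5.98%, 4.33% and 5.16%. Oleate+DMSO therefore held both the highest and the lowest share of the 18 samples, and the control, stearate and oleate groups overlapped. Means were 5.52% ± 0.272 for control, 5.28% ± 0.750 for stearate and 4.98% ± 0.994 for oleate (SD, n = 6 each). The nuclear share stayed between 1.67% and 1.84% in the 18 samples, with means of 1.79% ± 0.0602, 1.79% ± 0.0230 and 1.73% ± 0.0388. The ratio of the mitochondrial to the nuclear sum was accordingly 3.09 ± 0.169 in control, 2.96 ± 0.409 in stearate and 2.89 ± 0.618 in oleate, again with overlapping groups.

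**Figure D1:**
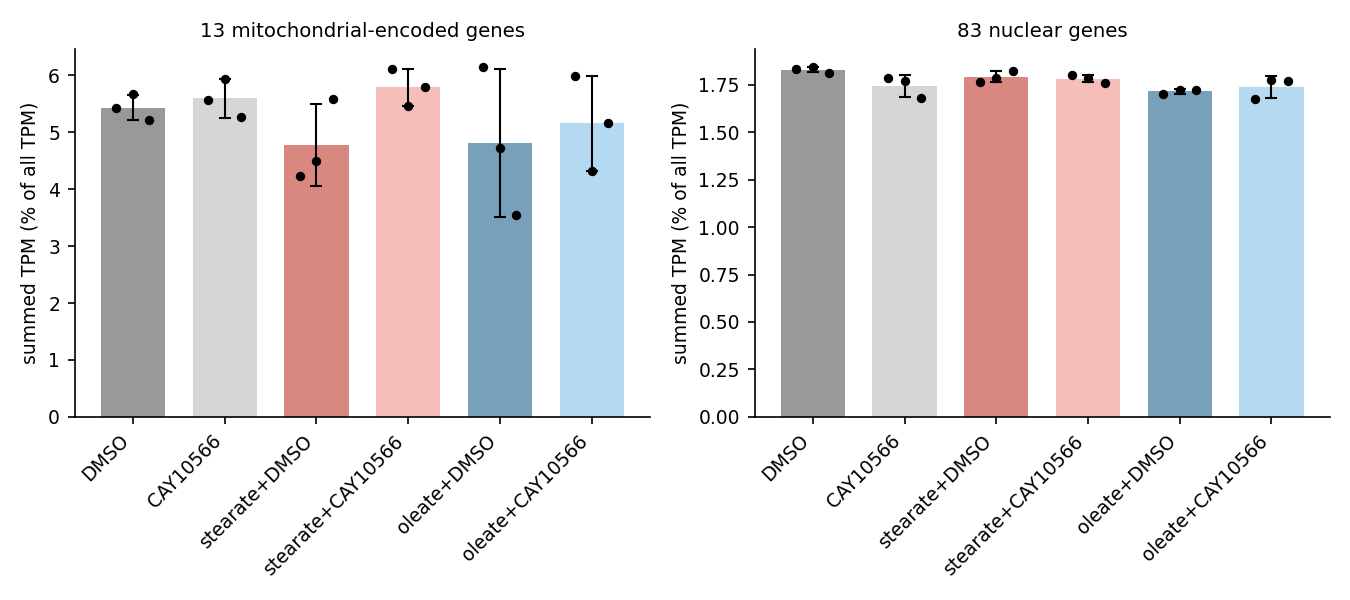
Summed TPM of the 13 mitochondrial-encoded genes (left) and the 83 nuclear genes (right) as a percent of all TPM, by condition. Bars are means, error bars are SD (n = 3) and points are replicates. The mitochondrial sum spans 3.56% to 6.15%, both ends in oleate+DMSO, while the nuclear sum spans 1.67% to 1.84%.

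The spread between replicates differed between the genomes. The SD within conditions on the log2(TPM + 1) scale had a median of 0.22 over the 13 mitochondrial genes (0.14 for MT-ND3 to 0.27 for MT-ND4). It was 0.07 over the nuclear members, 0.12 over all 13789 genes and 0.04 over the 117 nuclear genes at least as abundant as MT-ND6. This SD pools 6 conditions. The mitochondrial share varied widely in oleate+DMSO, oleate+CAY10566 and stearate+DMSO and less in the other conditions. Deviations of the samples from their condition means moved together among the mitochondrial genes (median Pearson r 0.919 over 78 gene pairs, as a description across 18 samples that share a TPM total), and less so among nuclear members (0.128 over 3403 pairs) or between the genomes (-0.0698 over 1079 pairs). The nuclear members with the widest spread were NDUFC2-KCTD14 (SD 1.05), a read-through of NDUFC2 into its neighbour, COX6B2 (0.36), the testis form of a complex IV subunit, and NDUFA4L2 (0.25), all at low levels.

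**Figure D2:**
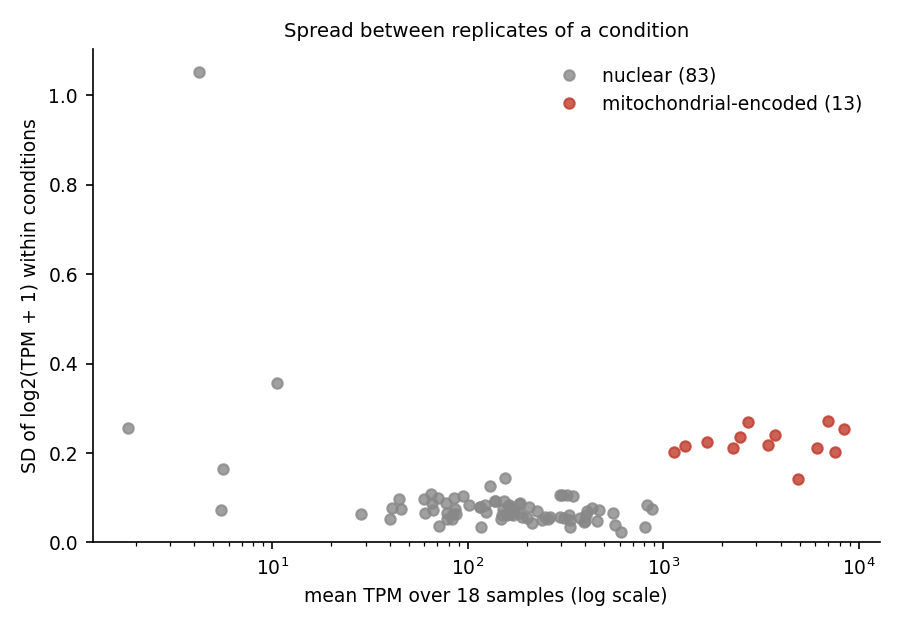
SD of log2(TPM + 1) between replicates, pooled within the 6 conditions, against mean TPM on a log axis. Each point is 1 gene. The mitochondrial-encoded genes lie between 0.14 and 0.27, and most nuclear genes near their median of 0.07.

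Because the mitochondrial genes rose and fell together between samples, each was also expressed as its share of the summed TPM of all 13. On this scale MT-ND1, a membrane subunit of complex I, made up 4.52% ± 0.109 (SD, n = 6) in control, with a mean of 4.22% in stearate and 4.24% in oleate. The control samples lay between 4.36% and 4.66%, above all stearate samples (4.09% to 4.33%) and all oleate samples (4.09% to 4.31%). MT-ATP6, the membrane subunit of ATP synthase that lines its proton channel, was lower in oleate (4.39% to 4.64%) than in every control sample (4.65% to 4.91%), while stearate samples (4.62% to 4.93%) overlapped control. MT-ND5 was the single gene whose share did not overlap between stearate (2.19% to 2.50%) and oleate (2.51% to 2.71%). In all, 1 of 13 shares for stearate against control, 2 of 13 for oleate against control and 1 of 13 for stearate against oleate did not overlap. On the TPM scale 7.79%, 4.06% and 10.2% of all genes did not overlap in these comparisons, and nothing is read from the counts of shares. MT-CO1, the catalytic core of complex IV, took 11.1% ± 1.10 in control and 12.5% ± 0.396 in oleate with overlapping samples, and MT-ND3 took 8.94% ± 1.03 in control, 10.2% ± 0.930 in stearate and 8.89% ± 1.27 in oleate. The shares sum to the whole in each sample, so that a lower share of 1 gene raises the others, and they were not tested.

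**Figure D3:**
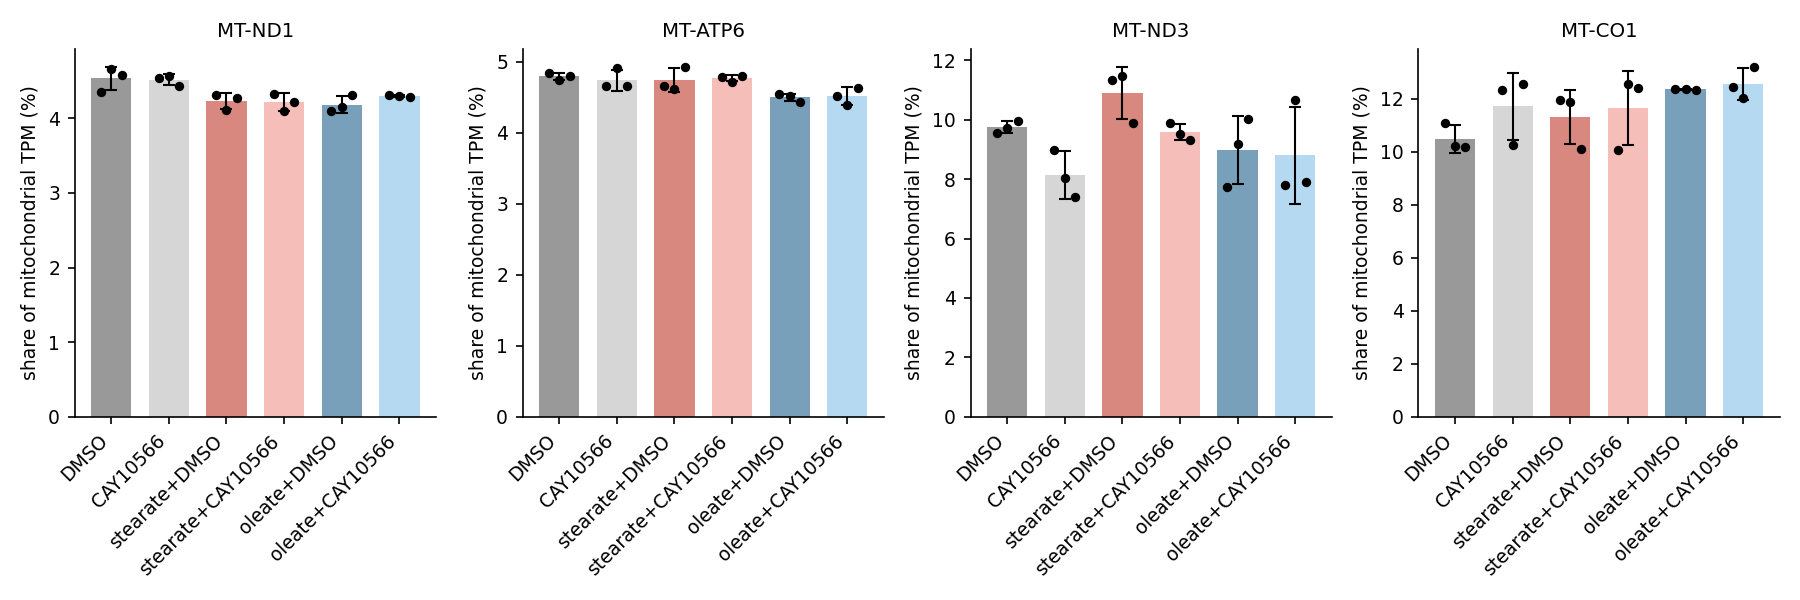
Share of 4 genes in the summed TPM of the 13 mitochondrial-encoded genes, in percent, by condition. Bars are means, error bars SD (n = 3) and points replicates. Control samples of MT-ND1 (4.36% to 4.66%) lie above every stearate and oleate sample. The shares were not tested.

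Differences between groups were then tested gene by gene with limma on log2(TPM + 1), adjusted by the Benjamini-Hochberg method over all 13789 genes and called at a false discovery rate (FDR) under 0.05. None of the 13 mitochondrial genes passed in stearate against control or in oleate against control (0 and 2 had an unadjusted p under 0.05, against 33.8% and 38% of all genes). Their log2 fold changes ran from -0.17 (MT-ND1) to 0.13 (MT-ND3) with stearate, with a median of -0.09 and 12 of 13 below 0. With oleate they ran from -0.29 (MT-CO3) to 0.00 (MT-CO1), with a median of -0.19 and 12 of 13 below 0, while the median over all genes was 0.06 with stearate and 0.09 with oleate. The median half-width of the 95% confidence intervals of the mitochondrial genes was 0.25, so that changes of the size of these medians could not be resolved. MT-ND3 was the exception between the fatty acids. It had 4798 to 6048 TPM in stearate (median 5309), 3560 to 4755 TPM in oleate (median 4483) and 3892 to 5512 TPM in control (median 5098), so that every stearate sample lay above every oleate sample. The log2 fold change for stearate against oleate was 0.31 (SE 0.08, limma adjusted p = 0.00906). The other 12 mitochondrial genes did not pass this comparison.

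With stearate against control, 6 of the 96 members (6.25%) passed against 19.4% of all genes tested. The 5 that rose (13.5% of all genes rose) were NDUFS1, NDUFB3 and NDUFA2 of complex I, NDUFA4 of complex IV and ATP5MG of ATP synthase, and the 1 that fell (5.97% of all genes fell) was ATP5F1D. No member passed with a log2 fold change past 0.32 in size, the study's cut on fold change, against 5.35% of all genes. NDUFS1 encodes the large iron-sulphur subunit of the NADH-oxidising arm (chr2:206114817-206159509, minus strand, GENCODE 44 on GRCh38). Its values were 55.3, 54.6 and 59.3 TPM in DMSO, 58.4, 53.4 and 58.8 TPM in CAY10566, 66.2, 63.4 and 60.7 TPM in stearate+DMSO, and 65.7, 64.2 and 60.9 TPM in stearate+CAY10566. On TPM as given, all 6 stearate samples lay above all 6 control samples, and overlap was not counted again after rescaling. The log2 fold change was 0.16 (SE 0.04, limma adjusted p = 0.00646).

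ATP5F1D, the delta subunit in the central stalk of ATP synthase (chr19:1241746-1244825, plus strand), moved the other way. It had 166, 168 and 172 TPM in DMSO and 156, 166 and 157 TPM in CAY10566, against 144, 137 and 140 TPM in stearate+DMSO and 131, 149 and 142 TPM in stearate+CAY10566. Every stearate sample was below every control sample, and ATP5F1D fell by 0.23 on the log2 scale (SE 0.05, limma adjusted p = 0.00216). These were the 2 members whose stearate and control samples did not overlap, against 7.79% of all genes. The other 4 members that rose had log2 fold changes of 0.13 (ATP5MG, adjusted p = 0.0449), 0.11 (NDUFB3, adjusted p = 0.0358), 0.11 (NDUFA4, adjusted p = 0.0351) and 0.09 (NDUFA2, adjusted p = 0.0456) by limma, and their groups overlapped. Leaving out DMSO replicate 3, CAY10566 replicate 1, 2 or 3, or any 1 of the 6 stearate samples left 1 to 3 of these 5 genes called, and with CAY10566 replicate 3 left out there was 1 rise and there were 3 falls. In these fits 1281 to 2796 of all 13789 genes rose, and 6.53% of all genes fell without CAY10566 replicate 3. Only NDUFS1 and ATP5F1D were called in every fit with 1 sample left out. Over all 30 alternative fits NDUFS1 was called in 27 (log2 fold change 0.09 to 0.18, limma adjusted p up to 0.204) and ATP5F1D in 29. Rescaling TPM by size factors turned the split from 5 higher and 1 lower to 1 higher and 8 lower, and that of all genes turned too, to 7.92% higher and 10.2% lower.

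With oleate against control, 15 of 96 members (15.6%) passed against 25.7% of all genes. Of these members 2 rose (23% of all genes did) and 13 fell (2.7% of all genes did), a split that depended on the scaling. No member passed with a change past 0.32 on the log2 scale, against 6.9% of all genes. Of the 13 that fell, 9 were nuclear genes of complex I (NDUFS8, NDUFB11, NDUFC1, NDUFA3, NDUFS6, NDUFB4, NDUFA7, NDUFB9 and NDUFB10), 1 was COX5A of complex IV, and 3 were ATP5F1D, ATP5MC2 and ATP5PD of ATP synthase. The 2 that rose were NDUFS1 and ATP5MF-PTCD1, a read-through of ATP5MF into PTCD1 whose level is uncertain because it shares sequence with both.

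NDUFS8, an iron-sulphur subunit of complex I (chr11:68030617-68036644, plus strand), had 231, 233 and 225 TPM in DMSO, 222, 223 and 189 TPM in CAY10566, 182, 180 and 194 TPM in oleate+DMSO, and 178, 187 and 203 TPM in oleate+CAY10566. CAY10566 replicate 3 lay among the oleate samples, and the other 5 control samples were above all 6 oleate samples. NDUFS8 fell by 0.23 on the log2 scale (SE 0.05, limma adjusted p = 0.00303). NDUFB11, an accessory subunit in the membrane arm (chrX:47142071-47145466, minus strand), ranged from 57.1 to 63.1 TPM in oleate and from 59.3 to 72.8 TPM in control, and its 59.3 TPM came from the same CAY10566 replicate 3. It fell by 0.20 (SE 0.05, limma adjusted p = 0.00642). NDUFC1, a small accessory subunit (chr4:139266880-139302551, minus strand), had 78.1 to 91.9 TPM in oleate and 81.2 to 105 TPM in control, the lowest again from CAY10566 replicate 3, and fell by 0.19 (SE 0.05, limma adjusted p = 0.0124). NDUFS1 had 57.4 to 67.5 TPM in oleate against 53.4 to 59.3 TPM in control, overlapping in 1 oleate sample, and rose by 0.12 (SE 0.04, limma adjusted p = 0.0281). The 1 member whose oleate and control samples did not overlap at all was NDUFA10, against 4.06% of all genes. NDUFA10 was higher by 0.08 and did not pass (limma adjusted p = 0.129), and was named after its values were seen.

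The oleate counts depended on single libraries and on the scaling. Without CAY10566 replicate 3, 24 members fell and 4 rose (4.11% and 30.1% of all genes), and without DMSO replicate 1, 8 fell and 0 rose (1.97% and 18.7% of all genes). The rises numbered 0 or 1 without DMSO replicate 2 or 3, CAY10566 replicate 1 or 2, oleate+DMSO replicate 2 or 3, or oleate+CAY10566 replicate 2 or 3. In these fits 2215 to 3515 of all 13789 genes rose. With size factors 36 members fell and 0 rose, and that scaling moved the median of all genes from 0.09 to 0.00 and left 9.07% of them rising and 9.12% falling. The nuclear members have shorter transcripts than other genes (median longest transcript 1587 bases against 3459 bases), and with the dependence on length and GC content taken out of each sample, 4 members fell and 9 rose, while 1.92% of all genes fell and 22% rose, and NDUFS1, whose longest transcript has 11660 bases, changed sign to -0.02.

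**Figure D4:**
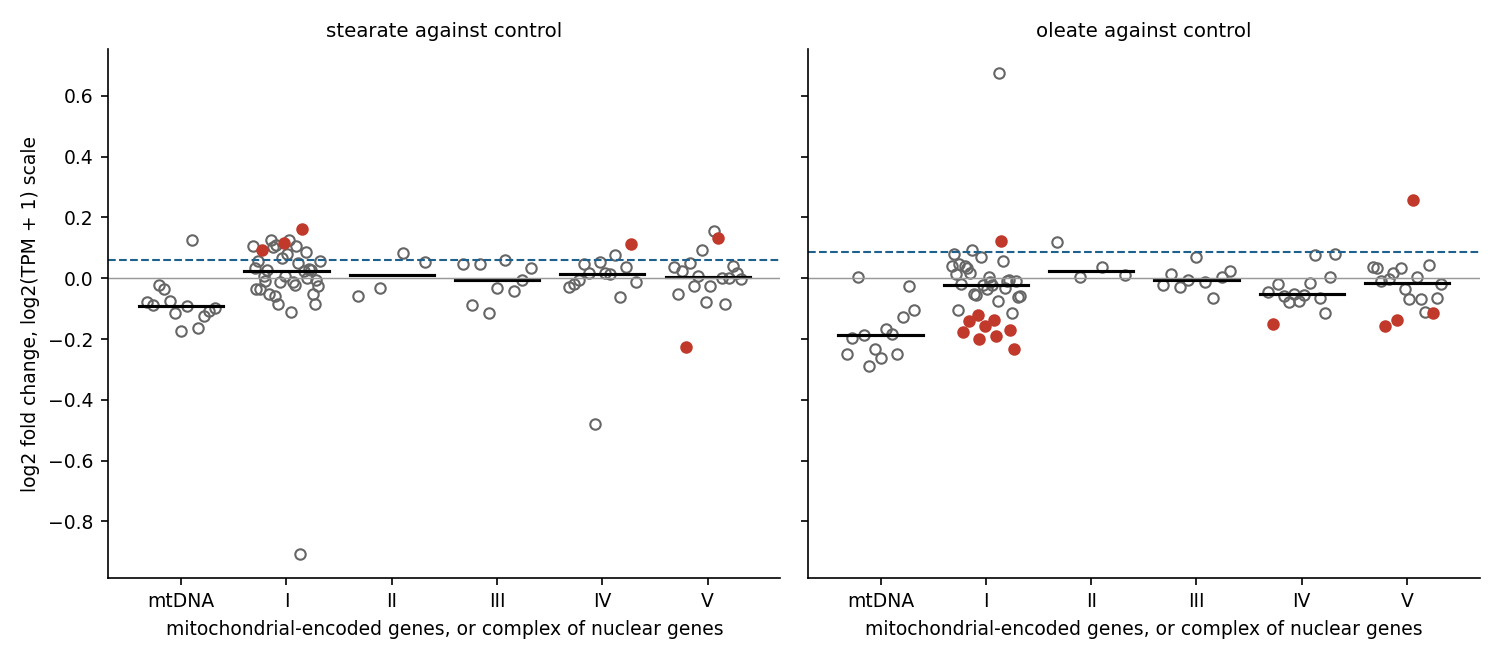
Log2 fold change of each member on the log2(TPM + 1) scale against control, for stearate (left) and oleate (right). Columns are the mitochondrial-encoded genes (mtDNA) and the nuclear genes of complexes I to V, filled points passed an FDR under 0.05, black lines are column medians and the dashed line is the median of all 13789 genes. With oleate, 9 of the 13 falling genes are nuclear genes of complex I, which holds 38 of the 83 nuclear members, and 2.7% of all genes fell. The falling members numbered 4 with length and GC trends removed and 36 with size factors.

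In stearate against oleate 26 of 96 members (27.1%) passed, against 21.1% of all genes, with 22 higher in stearate (6.85% of all genes) and 4 lower (14.3% of all genes). The 22 comprised 12 nuclear genes of complex I, 6 of complex IV (COX5A, COX6A1, COX6B1, COX6C, COX8A and NDUFA4), 3 of ATP synthase (ATP5MC2, ATP5MG and ATP5PD) and MT-ND3. The 4 lower in stearate were SDHA, UQCRC2, ATP5F1B and NDUFC2-KCTD14. Samples of the 2 groups did not overlap for 10 members, against 10.2% of all genes: MT-ND3, NDUFC1, NDUFB11, NDUFB3, NDUFB9, NDUFA2, NDUFV3 and COX6A1 were higher, and SDHA and ATP5F1B lower, in every stearate sample.

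NDUFC1 differed most among the nuclear members that were higher. It had 100, 106 and 103 TPM in stearate+DMSO, 104, 103 and 100.4 TPM in stearate+CAY10566, 86.0, 78.1 and 84.0 TPM in oleate+DMSO, and 79.4, 82.0 and 91.9 TPM in oleate+CAY10566. The gap between the groups held with and without CAY10566, and the log2 fold change was 0.30 (SE 0.05, limma adjusted p = 0.000400). NDUFS6 (0.20, SE 0.05, limma adjusted p = 0.00862) and NDUFB11 (0.19, SE 0.05, limma adjusted p = 0.00854) followed. Among mitochondrial ATP synthase genes none passed, while ATP5F1B, the catalytic beta subunit, had 579 to 595 TPM in stearate and 612 to 639 TPM in oleate (log2 fold change -0.08, SE 0.02, limma adjusted p = 0.00387).

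Summed nuclear TPM was also set side by side by complex. The nuclear genes of complex I summed to 6189 to 6456 TPM in stearate and 5818 to 6169 TPM in oleate, and those of complex IV to 4660 to 4773 TPM in stearate and 4279 to 4608 TPM in oleate, with no overlap in either. Control samples ran from 5797 to 6482 TPM for complex I and from 4411 to 4838 TPM for complex IV, and both lowest values came from CAY10566 replicate 3. Without it the controls began at 6168 TPM for complex I, still overlapping oleate, and at 4618 TPM for complex IV. The latter lies above every oleate sample. Sums over complex II (440 to 490 TPM in stearate, 450 to 485 TPM in oleate), complex III (1537 to 1650 TPM in stearate, 1552 to 1657 TPM in oleate) and complex V (4682 to 4964 TPM in stearate, 4638 to 4922 TPM in oleate) overlapped. These sums are descriptions on TPM as given and carry no test. They were not rescaled by size factors, which ran from 0.942 to 1.06 and could change the overlap. Among single genes, 10.2% did not overlap between stearate and oleate. With the length and GC trends removed, 12 members were higher in stearate and 9 lower (6.49% and 15.2% of all genes). Size factors gave 24 and 2 (10.4% and 11.5% of all genes). Without stearate+DMSO replicate 3 or oleate+CAY10566 replicate 1 the members that were higher numbered 12 and 14 (753 and 730 of all 13789 genes). Without oleate+DMSO replicate 2 the lower members numbered 2 (1609 of all genes). With all samples kept, 945 of all genes were higher and 1967 lower.

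**Figure D5:**
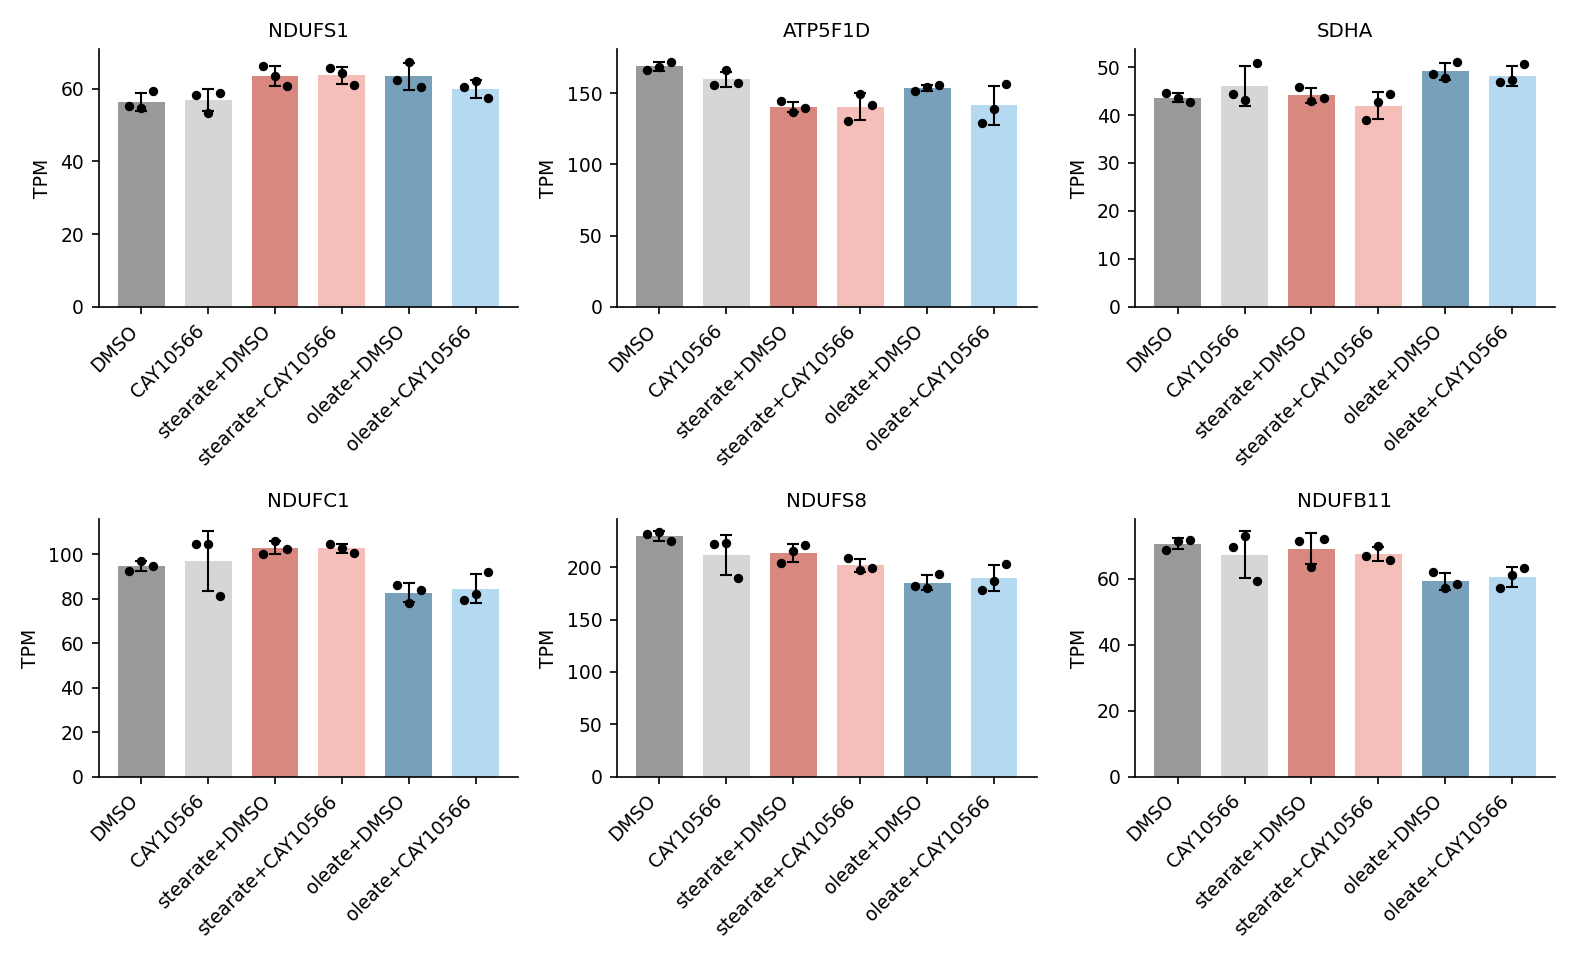
TPM of 6 nuclear members by condition, with means (bars), SD (error bars, n = 3) and replicates (points). NDUFS1 is higher and ATP5F1D lower in all 6 stearate samples than in control, NDUFC1 separates stearate from oleate, and CAY10566 replicate 3 is the lowest control point of NDUFC1, NDUFS8 and NDUFB11 and the highest of SDHA.

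In complex II, the single complex with no mitochondrial gene, 1 of 4 subunits passed in stearate against oleate, where 21.1% of all genes did. SDHA, the flavoprotein that oxidises succinate (chr5:218303-257082, plus strand), had 45.8, 43.0 and 43.5 TPM in stearate+DMSO, 38.9, 42.6 and 44.3 TPM in stearate+CAY10566, 48.6, 47.8 and 51.2 TPM in oleate+DMSO, and 46.8, 47.2 and 50.6 TPM in oleate+CAY10566. All stearate samples were below all oleate samples (log2 fold change -0.18, SE 0.04, limma adjusted p = 0.00857). Against control, at 42.7 to 50.9 TPM, SDHA did not pass for stearate (-0.06, adjusted p = 0.379) or oleate (0.12, adjusted p = 0.0581) by limma. The 50.9 TPM was CAY10566 replicate 3, and the other 5 controls (42.7 to 44.5 TPM) lay below every oleate sample. Without that library SDHA passed for oleate (0.15, SE 0.04, limma adjusted p = 0.00424) and not for stearate (-0.02, limma adjusted p = 0.706). SDHB, the iron-sulphur subunit, and SDHC and SDHD, the membrane anchors, passed in no comparison. In the 3 comparisons of 6 against 6 their log2 fold changes lay between -0.04 (SDHB, stearate against oleate) and 0.08 (SDHC, stearate against control), and within DMSO alone SDHC reached 0.11 with stearate. SDHA has near-identical copies in the genome, and reads may be split between them.

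For complex III, 0 of 9 nuclear genes passed by limma in stearate against control and in oleate against control, where 19.4% and 25.7% of all genes did. CYC1, a complex III subunit outside the name rule, is not among the 9. It fell with stearate and is described below with the carriers. At an unadjusted p under 0.05 there were 0 and 2 of the 9, against 33.8% and 38% of all genes. UQCRC2, a core subunit, was lower in stearate than in oleate (-0.10, SE 0.03, limma adjusted p = 0.0216). In the model of 6 conditions UQCRH fell with oleate within DMSO (-0.13, SE 0.04, limma adjusted p = 0.0317, 24.2% of all genes passed), and UQCR11 was lower in stearate than in oleate within CAY10566 (-0.24, SE 0.06, limma adjusted p = 0.0274, 7.66% of all genes passed). UQCRHL, a near-copy of UQCRH, stayed at 5.03 to 6.06 TPM in control and stearate and 5.42 to 5.58 TPM in oleate, and reads cannot be fully separated between the copies.

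Among the paralogs given here, only ATP5MC2 passed in oleate against control, so whether paralogs share a direction cannot be read from these calls. Of the 3 genes for the proton-carrying c subunit of ATP synthase, whose mature proteins are identical, ATP5MC2 fell with oleate (379 TPM against 417 TPM in control, log2 fold change -0.14, SE 0.04, limma adjusted p = 0.0152). ATP5MC1 (335 and 331 TPM) and ATP5MC3 (163 and 159 TPM) did not pass. COX6B2 had a median of 7.16 TPM in stearate, 11.4 TPM in control and 10.6 TPM in oleate, with 1 stearate sample at 16.7 TPM, and its log2 fold change for stearate against control of -0.48 (SE 0.19, limma adjusted p = 0.0814) did not pass. NDUFA4L2 stayed between 1.21 and 3.19 TPM and passed in no comparison.

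NDUFC2-KCTD14 had the largest difference of any member and was the single one that passed with more than 0.32 on the log2 scale in stearate against oleate (6.37% of all genes did). It was listed at 3.18, 1.19 and 0 TPM in stearate+DMSO, 1.60, 0 and 5.75 TPM in stearate+CAY10566, 2.28, 7.49 and 6.75 TPM in oleate+DMSO, and 5.44, 7.60 and 8.64 TPM in oleate+CAY10566. The control samples ran from 0 to 8.09 TPM, and the log2 fold change of -1.58 (SE 0.51, limma adjusted p = 0.0330) passed in 9 of 18 fits with 1 sample left out (-1.89 to -1.34) and reached -2.79 with a pseudocount of 0.1, where it did not pass (limma adjusted p = 0.0661). It was lost without stearate+DMSO replicate 2 or 3, stearate+CAY10566 replicate 1 or 2, oleate+DMSO replicate 2 or 3, or any oleate+CAY10566 replicate. It is uncertain also because this read-through shares exons with NDUFC2, which was itself higher in stearate than in oleate (0.12, SE 0.04, limma adjusted p = 0.0326).

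No member passed the test for CAY10566. Over 9 samples with and 9 without the inhibitor, 0 of 96 members and 0% of all genes passed by limma (7 members had an unadjusted p under 0.05, and 5.42% of all genes did). The mitochondrial genes had a median log2 difference of 0.15, with 12 of 13 above 0, and the nuclear members of -0.02, with 66 of 83 below 0. MT-CO1 had the largest difference (0.22, SE 0.08, limma adjusted p = 0.860, 95% confidence interval from 0.05). Within the fatty acid groups the median over the mitochondrial genes was 0.02 without fatty acid (8 of 13 above 0), 0.28 with stearate (13 of 13) and 0.13 with oleate (13 of 13), and 0 members passed in these, against 0%, 0.0145% and 0% of all genes. At an unadjusted p under 0.05 there were 11 members without fatty acid, 2 with stearate and 3 with oleate, against 10.1%, 5.52% and 4.72% of all genes. The interaction of CAY10566 with stearate or with oleate passed for 0 members (0.00725% and 0% of all genes), with 6 and 5 members at an unadjusted p under 0.05 (9.36% and 10.3% of all genes). As the spread of mitochondrial genes is shared between them, 13 of 13 above 0 does not stand for 13 separate observations.

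With each fatty acid compared within DMSO and within CAY10566, in a model of 6 conditions, the passing members were mostly those in DMSO. For stearate, ATP5F1D fell within DMSO (-0.27, SE 0.06, limma adjusted p = 0.00928, 14% of all genes passed), and NDUFA4 rose within CAY10566 (0.20, SE 0.05, limma adjusted p = 0.0211, 4.75% of all genes passed). For oleate, 1 member rose and 15 fell within DMSO, where 24.2% of all genes passed, 21.1% rising and 3.1% falling. Within CAY10566 0 passed (0.109% of all genes), and 9 had an unadjusted p under 0.05 (13.4% of all genes). Those within DMSO included MT-ND3 (-0.34, SE 0.10, limma adjusted p = 0.0251), the single member that also exceeded 0.32 on the log2 scale there (14.1% of all genes did), and NDUFS8 (-0.31, SE 0.06, limma adjusted p = 0.00410). For stearate against oleate, 8 members were higher and 0 lower within DMSO, where 8.98% of all genes passed (3.05% higher and 5.93% lower). Within CAY10566 2 were higher and 2 lower, where 7.66% of all genes passed (1.9% higher and 5.76% lower), with NDUFC1 higher in both (0.31 and 0.28, SE 0.08 in each). As no interaction with stearate or oleate against control passed for any member, those responses were not shown to differ between DMSO and CAY10566. For stearate against oleate that difference was not tested.

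Genes that assemble, translate or regulate the complexes were described from hand-written lists. With stearate 13.5% of all genes rose and 5.97% fell, and with oleate 23% rose and 2.7% fell, and the counts of the lists stand beside these shares without a test. The shares depend on the scaling and on 1 library. With size factors they were 7.92% and 10.2% for stearate and 9.07% and 9.12% for oleate, and without CAY10566 replicate 3 they were 20.3% and 6.53% for stearate and 30.1% and 4.11% for oleate. The lists were not counted again under these settings. Of 78 mitochondrial ribosomal protein genes 0 rose and 10 fell with stearate (median log2 fold change -0.03), led by MRPS2 (-0.27, SE 0.04, limma adjusted p = 3.06e-05), and 1 rose and 1 fell with oleate. Of 28 genes of mitochondrial transcription, RNA processing and translation, 4 rose and 2 fell with stearate, and 7 rose and 1 fell with oleate. The largest rise was that of LRPPRC, an RNA-binding protein that keeps mitochondrial messengers stable, which had 122 TPM in control, 122 TPM in stearate and 163 TPM in oleate (0.43 for oleate against control, SE 0.10, limma adjusted p = 0.00682). Its partner SLIRP fell with oleate (-0.14, SE 0.04, limma adjusted p = 0.00785).

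Among assembly factors, UQCC1, which acts on complex III, had 43.3 TPM in control, 33.0 TPM in stearate and 49.4 TPM in oleate, and fell with stearate (-0.38, SE 0.04, limma adjusted p = 9.79e-06). COX17, a copper chaperone of complex IV, was higher in stearate than in oleate (0.28, SE 0.05, limma adjusted p = 0.000421). Of 18 complex I assembly factors 1 rose with stearate and 2 with oleate and 0 fell, of 19 tested for complex IV 3 rose with each and 0 fell, and of 4 each for complex II and ATP synthase 0 passed in these comparisons. Of the 6 complex III factors, 0 rose and 2 fell with stearate, and 2 rose and 0 fell with oleate, beside the 13.5% and 5.97% of all genes with stearate and the 23% and 2.7% with oleate.

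Of 10 nuclear regulators tested, 2 rose and 1 fell with stearate (13.5% and 5.97% of all genes) and 6 rose and 0 fell with oleate (23% and 2.7% of all genes). MYC fell with stearate (332 TPM in control and 282 TPM in stearate, -0.24, SE 0.02, limma adjusted p = 3.32e-07), and CREB1 rose with oleate (0.37, SE 0.10, limma adjusted p = 0.0102). Of 6 carriers and subunits outside the name rule, 0 rose and 2 fell with stearate and 0 rose and 1 fell with oleate, to be read beside the same shares. CYC1, the cytochrome c1 subunit of complex III, fell with stearate (-0.13, SE 0.04, limma adjusted p = 0.0187), and HIGD2A, a factor of complex IV and supercomplexes, fell with oleate (-0.19, SE 0.05, limma adjusted p = 0.0120). In stearate against oleate 1 of the 6 was higher and 2 were lower (6.85% and 14.3% of all genes). CYC1 was the lowest (-0.19, limma adjusted p = 0.00178). Of the nuclear copies of mitochondrial DNA, 3 of 7 were above 1 TPM and 0 passed in any of the 4 comparisons.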

How the data were processed

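Total RNA of 18 samples of OVCAR5 cells was sequenced as 100 bp paired-end reads from a stranded mRNA library. The authors trimmed reads with Trim Galore, aligned them with STAR 2.7.1a to GRCh38 (Ensembl release 99) and quantified transcripts with RSEM. The deposited table used here holds TPM per gene for all samples, and counts were not used here. Of 60483 genes listed, 56321 had a symbol, and 1 line naming no gene was left out. Coordinates and lengths are from GENCODE 44.

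limma 3.58.1 in R 4.3.3 was fitted to log2(TPM + 1) with a variance trend for the 13789 genes with a mean of at least 1 TPM, in 3 groups of 6 (fatty acid), in the same groups with 9 against 9 for CAY10566, and in 6 conditions, with Benjamini-Hochberg adjustment over all genes. The fit was tested on simulated data. Tables were made in Python 3.11.15 and figures with matplotlib 3.10.9. An exact permutation test designed for members whose groups do not overlap is not given, since it could only take its smallest value there. Depth is unknown from TPM. Replicates of a condition correlated at 0.982 to 0.987 and no pair was identical.

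Alternatives were a pseudocount of 0.1, no minimum or a minimum of 5 TPM, no trend, size factors, TPM without mitochondrial genes, the replicate block, removal of trends on length and GC (splines with 3 degrees of freedom each), DMSO or CAY10566 samples alone, CAY10566 as a covariate, each sample left out, and, added after seeing the data, no read-through genes.

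Named were all mitochondrial members, the SDH genes, the 5 largest and 5 smallest nuclear changes of each fatty acid comparison, members past FDR 0.05 and the cut on fold change, paralogs, and the extremes of each list. Other genes are named because they passed the test or did not overlap, and were chosen after their values were seen. The members and lists were chosen with earlier results of these data known. The NRF1 string was shortened by 1 base after the counts of a longer form had been seen, which gave lower shares in members and in all genes.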

Additional observations from a re-analysis of the deposited data

Results flagged for a closer look

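Among 41 named members and the 2 summed shares, 129 groups of 6 samples were examined for a sample far from the rest by Dixon's criterion, and 11 samples stood out. Chance alone sets apart about 1 in 20 groups. Control CAY10566 replicate 3 accounted for 6 of them: 298 TPM for ATP5MC1 (331 to 344 TPM in the other 5 controls), 2388 TPM for MT-CO3 (2878 to 3147 TPM), 59.3 TPM for NDUFB11 (68.6 to 72.8 TPM), 189 TPM for NDUFS8 (222 to 233 TPM), 108 TPM for SDHB (122 to 129 TPM) and, above the others, 50.9 TPM for SDHA (42.7 to 44.5 TPM).

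The other 5 lay in different libraries. COX6B2 had 16.7 TPM in stearate+CAY10566 replicate 2 (5.77 to 8.57 TPM in the other stearate samples) and 17.1 TPM in oleate+DMSO replicate 1 (8.84 to 11.6 TPM). NDUFA3 had 309 TPM in stearate+CAY10566 replicate 1 (365 to 385 TPM), NDUFA9 had 70.4 TPM in oleate+CAY10566 replicate 2 (64.2 to 66.1 TPM), and UQCR11 had 185 TPM in DMSO replicate 1 (159 to 165 TPM).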

How the results depend on the processing

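Small changes in small groups limit these results: TPM holds no depth, 1 cell line was used, and most members that passed changed by under 0.32 on the log2 scale. Counts moved with the scaling and with single libraries. Counts are members at an FDR under 0.05 by limma. For stearate against control, the rises (5) numbered 1 with no filter, no trend or size factors, 2 with TPM rescaled without mitochondrial genes, and 0 in DMSO or CAY10566 samples alone, and the falls (1) numbered 8 with size factors, 3 without mitochondrial genes, 2 in DMSO and 0 in CAY10566 samples alone. Over all genes, 1309 of 30753 rose with no filter, and 1811 rose and 915 fell of 13916 without mitochondrial genes. Of 13789, 1811 rose with no trend, and 1092 rose and 1405 fell with size factors. In DMSO samples alone 1650 rose and 509 fell, and in CAY10566 samples alone 73 rose and 171 fell. For oleate against control, the rises (2) numbered 0 with no filter, with size factors and in CAY10566 samples, 9 with length and GC trends removed, 1 in DMSO samples and 1 without the read-through genes, and the falls (13) numbered 8, 36, 4, 22 and 0 with no filter, size factors, length and GC, DMSO samples and CAY10566 samples. Over all genes, 2274 rose and 246 fell of 30753 with no filter, and 2999 and 262 of 13627 with length and GC. Of 13789, 1251 rose and 1257 fell with size factors, 3087 and 514 in DMSO samples, and 0 and 4 in CAY10566 samples. For stearate against oleate, the higher members (22) numbered 12 with no filter and with length and GC, 13 in DMSO and 1 in CAY10566 samples, and the lower ones (4) 2 with size factors, 9 with length and GC, and 1 in DMSO and in CAY10566 samples. Over all genes, 713 of 30753 were higher with no filter, and 884 were higher and 2076 lower of 13627 with length and GC. Of 13789, 1590 were lower with size factors. In DMSO samples 491 were higher and 944 lower, and in CAY10566 samples 114 and 394. The median log2 fold change of nuclear members moved to -0.0468 (stearate) and -0.12 (oleate) with size factors and to 0.0328 (oleate) with length and GC. NDUFS1 in oleate against control reversed to -0.0219 with length and GC. The causes were not tested. With 1 sample left out, counts ranged from 1 to 5 rises and 1 to 3 falls for stearate, 0 to 4 rises and 8 to 24 falls for oleate, and 12 to 22 higher and 2 to 5 lower for stearate against oleate. Of all 13789 genes, 1281 to 2796 rose and 702 to 900 fell for stearate in these fits. For oleate 2215 to 4147 rose and 244 to 567 fell, and for stearate against oleate 730 to 1082 were higher and 1531 to 2368 lower. CAY10566 against DMSO had 0 calls under each alternative run. With the replicate block the counts were 4 and 1, 2 and 13, and 19 and 4 (1715 and 789, 2978 and 358, and 888 and 1894 of all 13789 genes). The block is no pairing: deviations of same-numbered samples correlated at -0.18 to 0.103 (2 of 45 over 0.1). Of 47 single calls, 24 were kept in every fit with 1 sample left out.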

Other observations

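The mitochondrial ribosomal RNAs, which are not members, gave a ratio that separated the fatty acids and was noticed after the values were seen. MT-RNR1 TPM divided by MT-RNR2 TPM was 0.232 to 0.247 in the 6 stearate samples, 0.217 to 0.223 in control and 0.204 to 0.220 in oleate, so that stearate overlapped neither group, while oleate overlapped control. MT-RNR1 itself was 1742 ± 248 TPM in stearate, 1956 ± 105 TPM in control and 1704 ± 280 TPM in oleate, and MT-RNR2 was 7269 ± 1071, 8872 ± 498 and 8111 ± 1499 TPM (SD, n = 6 each). Among single genes, 7.79% did not overlap for stearate against control and 10.2% for stearate against oleate. How many other ratios would not overlap was not counted. No test was run, and the mRNA library selects poly(A) tails, so that these values are not total ribosomal RNA.

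Of 6 epithelial keratin and adhesion genes, 0 rose and 4 fell with stearate, led by KRT18 (883 TPM in control and 651 TPM in stearate, log2 fold change -0.44, limma adjusted p = 6.70e-07), and 0 rose and 2 fell with oleate. Of all genes 13.5% rose and 5.97% fell with stearate, and 23% rose and 2.7% fell with oleate.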
